A study of Mus musculus with 6 samples.

Results

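The laminin chains were the 9 genes Lama1, Lama2, Lama3, Lama4, Lama5, Lamb1, Lamb2, Lamb3 and Lamc1, taken by gene name from a table of 22880 genes. The table held RNA sequencing of MC-38GFP cells, a line of mouse colon adenocarcinoma labelled with green fluorescent protein, sorted from tumors grown in the cecum wall of C57BL/6J mice. There were 3 Mock libraries and 3 libraries of HIF-1α-KD cells, in which the hypoxia-inducible transcription factor HIF-1α was knocked down (the knockdown libraries). Cells of both groups were transduced with pLKO.1-puro, were not passaged in vivo and were sorted as living, GFP-positive, CD45-negative and CD31-negative cells, and the cells were injected in Matrigel, itself an extract of basement membrane. The knockdown is a single cell line, the host cells around it keep HIF-1α, and the age of the mice is not given in the sources used here. The number of tumors behind a library is not stated either, so p-values measure the spread between these libraries, which may be technical.

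Laminins are secreted proteins of the basement membrane, each a trimer of an α, a β and a γ chain wound together in a coiled coil, and many of them are cross-shaped. The β and γ chains pair inside the cell, and the pair is secreted once an α chain has joined it. The globular end of the α chain is what integrins and dystroglycan on the cell surface hold on to, and trimers whose chains all have a short arm bind each other through these arms. The α4 chain lacks such an arm, so its trimers are not cross-shaped. Nidogens link the γ1 chain to the collagen IV network. A trimer is named by the numbers of its α, β and γ chains.

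Lamc1, Lama5, Lamb1 and Lama4 had higher mean counts in HIF-1α-KD than in Mock cells, between 1.67 and 2.44-fold on the scale of the test. None of them, and no other member, passed the limma test at an adjusted p-value under 0.05 over the 12014 genes tested. Of the 9 members, 7 passed the filter on low counts, and Lama1 and Lama2 did not. Of all tested genes, 0.00832% were called higher and 0.383% lower at that threshold. Before adjustment, 4 of the 7 chains were higher with a limma p under 0.05 and 0 were lower, against 7.04% and 5.69% of all tested genes. These 4 chains, Lama4, Lama5, Lamb1 and Lamc1, also had a fold of at least 1.5, and with both limits 4.02% of all tested genes were higher and 3.46% lower. The quasi-likelihood test of edgeR called 0 chains higher and 0 lower at an adjusted p-value under 0.05, against 0% and 0.391% of all tested genes, and 3 chains were higher before adjustment, against 6.09%. The Wald test of DESeq2 called 1 of the 7 higher, Lama5, and 0 lower, against 0.799% and 1.56% of all tested genes. The median log2 fold change of the 7 chains was 0.74, beside 0.02 for all tested genes, with 5 chains above 0 and 2 below.

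**Figure D1:**
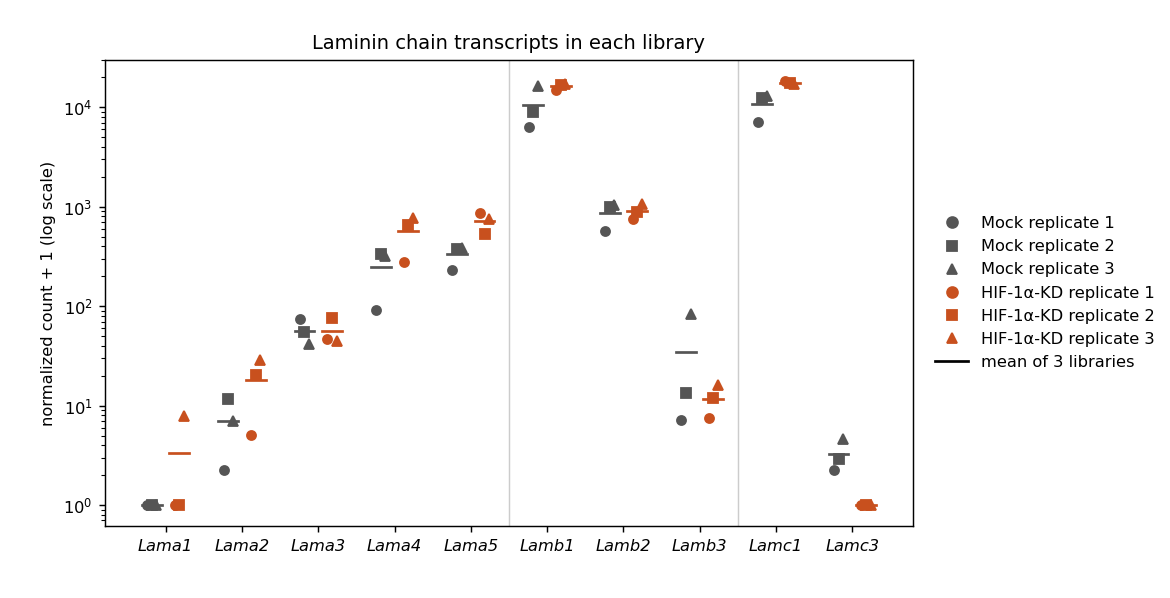
Normalized count plus 1 of each laminin chain (log axis), with 3 Mock libraries in grey and 3 HIF-1α-KD libraries in orange. Points are libraries, horizontal lines are means of 3 libraries, and the vertical lines part the α, β and γ chains. Lamb1 and Lamc1 lie highest, between 6392 and 18380, and the Mock replicate 1 point is the lowest of 6 for Lama2, Lama4, Lama5, Lamb1, Lamb2, Lamb3 and Lamc1.

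Upstream sequence is shown for 3 tested members for which the promoter table of RefSeq (assembly GRCm38.p6) gives bases before the start of the gene. Lama5 and Lamb1 had higher means in knockdown cells, and Lamb2 is the chain beside them with nearly equal means. In all, 5 of the 9 members matched an entry in that table, and only the bases before the start of the gene in the GENCODE annotation are printed, 5′ to 3′ on the strand of the gene. Capitals mark ACGTG or GCGTG on either strand, the core letters that HIF binds.
Lama5 (chr2:180225860-180226109, minus strand): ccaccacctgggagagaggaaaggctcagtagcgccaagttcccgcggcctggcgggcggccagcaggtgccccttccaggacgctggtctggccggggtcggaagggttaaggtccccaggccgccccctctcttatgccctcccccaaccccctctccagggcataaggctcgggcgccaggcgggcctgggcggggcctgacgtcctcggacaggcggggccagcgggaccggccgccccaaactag
Lamb1 (chr12:31265043-31265233, plus strand): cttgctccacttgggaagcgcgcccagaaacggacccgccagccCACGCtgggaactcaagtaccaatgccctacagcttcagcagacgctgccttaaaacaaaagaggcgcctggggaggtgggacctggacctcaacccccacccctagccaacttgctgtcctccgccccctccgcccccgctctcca
Lamb2 (chr9:108479612-108479735, plus strand): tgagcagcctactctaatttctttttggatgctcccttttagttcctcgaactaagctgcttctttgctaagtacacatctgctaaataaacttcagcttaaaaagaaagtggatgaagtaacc
Of these 3 stretches Lamb1 held a match, CACGC, the reverse complement of GCGTG, 206 bases upstream of the RefSeq start. Lamb3 also had a match, 31 bases upstream of 1 of its 2 RefSeq starts, in a window that is not printed because it lies inside the gene as GENCODE draws it. Either core was present in 43.8% of the 32851 promoter windows of 300 bases in the table, so a match is common, and neither a match nor its absence says anything of binding.

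Lama5 encodes the α5 chain, the widespread α chain of adult epithelia and vessel walls (ENSMUSG00000015647, chromosome 2, 180176373 to 180225859, minus strand of GRCm38). Mock libraries gave normalized counts, which are reads divided by a factor for each library, of 231, 373 and 386.5, and knockdown libraries gave 855, 525 and 753. Each HIF-1α-KD library lay above each Mock library. Mean counts were 330.4 ± 86.0 in Mock and 711 ± 169 in knockdown cells (SD, n = 3 each). The log2 difference, HIF-1α-KD minus Mock, was 1.11 (95% interval 0.51 to 1.71, standard error [SE] 0.26, limma adjusted p = 0.203). This was the chain with the smallest p-value, at place 147 of the 12014 genes. DESeq2 gave it a log2 difference of 1.10 with an adjusted p of 0.00829, and over the 11 settings other than leaving out a library its adjusted p ranged from 0.00829 to 0.394.

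Lama4 encodes the α4 chain, known from endothelial basement membranes and from mesenchymal cells (ENSMUSG00000019846, chromosome 10, 38965515 to 39110188, plus strand). Its normalized counts were 89.9, 330.2 and 315 in Mock and 275, 658 and 761 in knockdown libraries. HIF-1α-KD replicate 1 lay below Mock replicates 2 and 3, so the groups overlapped. Means were 245 ± 135 and 565 ± 256 (SD, n = 3 each), and the log2 difference was 1.29 (95% interval 0.05 to 2.53, SE 0.54, limma adjusted p = 0.384). It was 0.68 without Mock replicate 1, the lowest library.

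Lama3, an α chain known from epithelia, was low and level between the groups. Its normalized counts were 72.6, 53.6 and 41.1 in Mock and 45.9, 75.5 and 43.9 in knockdown libraries, which were intermixed. The log2 difference was -0.02 (95% interval -0.85 to 0.80, SE 0.36, limma adjusted p = 0.984), an interval that still holds ratios of knockdown to Mock from 0.555 to 1.74.

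Lama2, the α chain of the laminins of muscle and peripheral nerve, had 1, 11 and 5 reads in Mock and 5, 16 and 24 reads in knockdown libraries, too few to be tested. Lama1, the α chain of early embryonic basement membranes, had 0 reads in all libraries but HIF-1α-KD replicate 3, which had 6. A count of 0 allows up to 3 reads in a library, for counting error alone, so the absence of Lama1 is known only to this depth. By normalized counts HIF-1α-KD replicate 3 was the highest library for Lama1, Lama2 and Lama4, and also for Lamb1 and Lamb2.

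Lamb1 encodes the β1 chain, the β chain of most basement membranes (ENSMUSG00000002900, chromosome 12, 31265234 to 31329644, plus strand). Mock libraries gave normalized counts of 6392, 8991 and 16330, and knockdown libraries gave 14900, 16890 and 17340. Mock replicate 3 reached the range of the knockdown, and the other two Mock libraries lay below it. The mean of 10571 ± 5154 in Mock stood beside 16377 ± 1298 in knockdown cells (SD, n = 3 each), with a log2 difference of 0.74 (95% interval 0.06 to 1.42, SE 0.30, limma adjusted p = 0.375).

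Lamb2 encodes the β2 chain, which is concentrated at the neuromuscular synapse and in the kidney filter (ENSMUSG00000052911, chromosome 9, 108479736 to 108490530, plus strand). The counts were 570, 991 and 1046 in Mock and 760.1, 886 and 1071 in knockdown libraries. The groups overlapped over most of their range. The log2 difference was 0.10 (95% interval -0.48 to 0.67, SE 0.25, limma adjusted p = 0.905), so a fold above 1.59 lies outside the interval.

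Lamb3, a β chain known from epithelia (ENSMUSG00000026639), counted 6.16, 12.4 and 83.35 in Mock and 6.43, 10.8 and 15.02 in knockdown libraries, as normalized counts. The Mock mean of 34.0 rested on Mock replicate 3. The log2 difference of -0.84 (95% interval -2.84 to 1.15, SE 0.88, limma adjusted p = 0.728) became 0.19 without that library. With all libraries edgeR gave -1.69 (adjusted p = 0.482) and DESeq2 gave -1.68 (adjusted p = 0.467). Mock replicate 3 was also the library with the highest summed level of colon epithelial markers, 20.8 FPKM beside 2.68 to 4.56 in the other 5, and the part of those cells in the Lamb3 value was not tested.

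Lamc1 encodes the γ1 chain, the γ chain of most laminins (ENSMUSG00000026478, chromosome 1, 153218922 to 153332786, minus strand). Its normalized counts were 7044, 12340 and 13080 in Mock and 18380, 17700 and 17140 in knockdown libraries. All 3 knockdown libraries lay above all Mock libraries and close to each other. Mean counts were 10821 ± 3292 and 17740 ± 621 (SD, n = 3 each), with a log2 difference of 0.76 (95% interval 0.24 to 1.29, SE 0.23, limma adjusted p = 0.275). Lamc1 and Lama5 were the 2 of 7 chains whose groups did not overlap in the higher direction, beside 10.4% of all tested genes, and 0 chains were without overlap in the lower direction, beside 8.75%.

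Lamc3, a γ chain that is not among the 9 genes, is given because some trimers need it. It had 1, 2 and 3 reads in Mock and 0 in each knockdown library, which is at or under the limit of what a count of 0 allows.

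**Figure D2:**
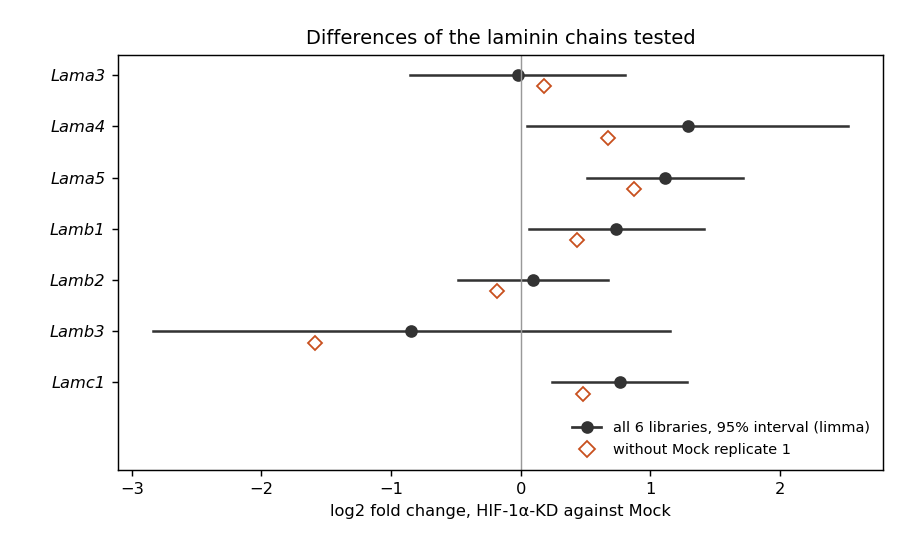
Log2 fold change of HIF-1α-KD against Mock cells for the 7 laminin chains tested. Filled circles with bars are the estimates and 95% intervals of limma with all 6 libraries, and open diamonds are the estimates without Mock replicate 1. The intervals of Lama4, Lama5, Lamb1 and Lamc1 lie above 0, and without Mock replicate 1 these estimates are between 0.43 and 0.87.

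Mock replicate 1 had the lowest count of the 6 libraries for Lama2, Lama4, Lama5, Lamb1, Lamb2, Lamb3 and Lamc1, by a narrow margin for Lamb3. Without it the estimates were 0.68 for Lama4, 0.87 for Lama5, 0.43 for Lamb1 and 0.48 for Lamc1, and that of Lamb2 turned to -0.18. By the limits of p under 0.05 before adjustment and 1.5-fold, 4 of 7 chains were higher with all libraries and 1 of 7, Lama5, without Mock replicate 1, where 2.01% of all tested genes were. That count was 2 without HIF-1α-KD replicate 2, beside 3.67% of all tested genes, and 2 without HIF-1α-KD replicate 3, beside 4.05%. The sign of the 4 chains did not turn in any of these fits.

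Levels can be set against each other only per length, and the FPKM that the authors deposited divides by a gene width that is an average over annotated transcripts. This width is 2240 bases for Lamc1, whose longest coding transcript has 7622 bases in GENCODE, and 3260 bases for Lama5, whose longest has 11388. FPKM levels are therefore given beside the same reads scaled to library depth and to the longest coding transcript. On the FPKM scale Lamc1 was the highest chain, with mean levels of 193.5 ± 61.4 in Mock and 328.6 ± 5.27 in knockdown cells (SD, n = 3 each). Lamb1 followed at 166 ± 78.4 and 268 ± 27.5 (SD, n = 3 each), overlapping with Lamc1 in Mock and lying below it in each HIF-1α-KD library. With the longest transcript the order of this pair was the other way round, with Lamb1 at 118 ± 12.02 and Lamc1 at 96.6 ± 1.55 (SD, n = 3 each) in knockdown cells.

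Lamb2 came next on both scales, at an FPKM level of 29.5 ± 9.25 in Mock and 31.9 ± 6.14 in knockdown cells (SD, n = 3 each). Lama5 and Lama4 could not be ordered, since their FPKM levels overlapped in Mock (4.06 ± 1.12 and 3.74 ± 2.10, SD, n = 3 each) and in knockdown cells (9.03 ± 2.001 and 8.95 ± 4.19, SD, n = 3 each). Lama3, Lamb3 and Lama2 had mean FPKM levels under 1 in both groups.

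By class, the summed FPKM level of the α chains was 4.46, 10.4 and 9.58 in Mock and 15.1, 17.9 and 22.5 in knockdown libraries. The β chains summed to 117, 183 and 288 in Mock and 263, 311.3 and 326 in knockdown libraries. Lamc1, the γ chain among the 9 genes, was at 123, 229 and 229 in Mock and 331, 332 and 322.5 in knockdown libraries. Thus the α sum and Lamc1 did not overlap between the groups, and the β sum did. Of all tested genes taken singly, 10.4% were without overlap in the higher direction, and Lama4 by itself overlapped. Lamc1 exceeded the α sum 27.5, 22.1 and 23.9-fold in Mock and 21.99, 18.6 and 14.3-fold in knockdown libraries. With the longest coding transcripts these ratios were 21.9, 17.3 and 18.9-fold and 19.2, 14.1 and 11.2-fold, so α transcripts were scarcer than Lamc1 and the β chains in each of the 6 libraries under both lengths.

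**Figure D3:**
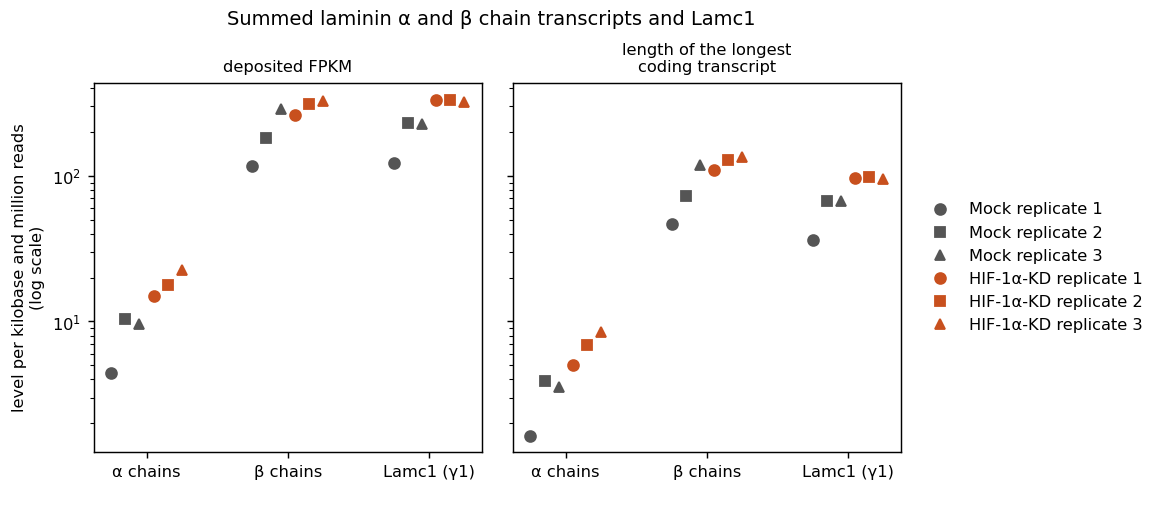
Summed level of the α and of the β chain transcripts and level of Lamc1 in each library (log axis), per kilobase and library depth, with the deposited FPKM on the left and the longest coding transcript on the right. Mock libraries are grey and HIF-1α-KD libraries orange. The α chains lie at 4.46 to 22.5 FPKM, and the β chains and Lamc1 at 117 to 332 FPKM.

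The expressed chains, taken as an FPKM of at least 1, allowed 4 of the 13 known trimers listed in all 6 libraries: laminin-411, laminin-421, laminin-511 and laminin-521. These join Lama4 or Lama5 with Lamb1 or Lamb2 and with Lamc1. In all 4 the α chain had the lowest level in 6 of 6 libraries on both length scales. The lowest chain of laminin-411 and laminin-421, Lama4, was at 1.33, 5.21 and 4.67 FPKM in Mock and 4.21, 10.5 and 12.2 FPKM in knockdown libraries. The lowest chain of laminin-511 and laminin-521, Lama5, was at 2.77, 4.77 and 4.64 FPKM in Mock and 10.6, 6.77 and 9.74 FPKM in knockdown libraries.

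Laminin-111 and laminin-121 lacked Lama1, and laminin-211, laminin-221 and laminin-213 lacked Lama2 at this limit. Laminin-423 and laminin-523 lacked Lamc3. Laminin-311 and laminin-321 depended on Lama3, which had at least 10 reads in all libraries, and with that limit the number of trimers was 6. With an FPKM of at least 2 it was 2, since Lama4 in Mock replicate 1 lay below that. With the longest coding transcript and a limit of 1 it was 0, since Lama4 (0.580) and Lama5 (0.792) in Mock replicate 1 were below it, and the 4 trimers were then allowed in 5 of the 6 libraries. The data are transcripts, and which trimers were assembled or secreted was not measured.

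Lamb1 made up between 80.7% and 90.0% of the β chain FPKM of a library. Lama5 was 62.1%, 46.0% and 48.4% of the α chain FPKM in Mock and 70.3%, 37.9% and 43.3% in knockdown libraries. Within a class, 2 ratios of FPKM levels were compared, a choice made after the values were seen. Lamb1 exceeded Lamb2 5.21, 4.21 and 7.25-fold in Mock and 9.10, 8.86 and 7.52-fold in knockdown libraries. With the longest coding transcripts the excess was 10.9, 8.83 and 15.2-fold in Mock and 19.1, 18.55 and 15.8-fold in knockdown libraries. The length cancels in the comparison of the groups, which gave a log2 difference of 0.64 without overlap (exact permutation test, two-sided, p = 0.1, adjusted p = 0.2), and p = 0.1 is the smallest that 3 libraries against 3 allow. For Lama5 over Lama4 the groups overlapped, with a log2 difference of -0.18 (exact permutation test, p = 0.7, adjusted p = 0.7). In the first replicate of each group the FPKM level of Lama5 was above that of Lama4, 2.09 and 2.52-fold, and in the other 4 libraries the ratio was between 0.646 and 0.993. With the longest coding transcripts the ratios were 1.37 and 1.65 in the first replicates and 0.424 to 0.651 in the other 4 libraries.

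Over the 6 libraries, the genes whose centered log2 counts lay nearest to those of Lamc1 among 12013 genes were Ace, D630045J12Rik, Pprc1, Bcr and P3h1. Their root mean square differences from Lamc1 were 0.05, 0.09, 0.09, 0.09 and 0.10 on the log2 scale. No laminin chain was among them: Lamb1 was at 0.25 (place 413) and Lama5 at 0.27 (place 609). Lamb2 was at 0.38, Lama4 at 0.64, Lama3 at 0.69 and Lamb3 at 1.24. All 6 libraries enter this measure, the difference between the groups included.

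Laminin receptors on the cell surface are integrins, dystroglycan and syndecans. Of 13 listed, 11 were tested, with 0 higher and 1 lower at an adjusted p-value under 0.05 in limma, 0 and 0 in edgeR and 0 and 1 in DESeq2. The shares of all tested genes lower were 0.383% in limma and 1.56% in DESeq2. Before adjustment limma had 0 higher and 1 lower, beside 7.04% and 5.69% of all tested genes, and the median log2 fold change was -0.02. The lower gene was Sdc4, which encodes the heparan sulfate carrier syndecan-4, at counts of 6778, 5891 and 7705 in Mock and 3662, 3336 and 3796 in knockdown libraries. The groups stood apart, with a log2 difference of -0.91 (SE 0.15, limma adjusted p = 0.0447). Its adjusted p was above the threshold with edgeR (0.0501), with scaling by library size (0.0519), with the length correction (0.0602), with the replicate block (0.109), with both of these (0.153) and whenever any library was left out. Itga1, which encodes a subunit of an integrin for collagens and laminins, had counts of 56.6, 125 and 99.1 in Mock and 58.7, 333 and 291 in knockdown libraries (log2 difference 1.00, SE 0.63, limma adjusted p = 0.545). This difference was 1.80 when HIF-1α-KD replicate 1 was left out (limma adjusted p = 0.0890) and 0.55 when HIF-1α-KD replicate 2 was. Sdc1, which encodes syndecan-1, was at 0.25 (SE 0.22, limma adjusted p = 0.675), with overlapping groups. The dystroglycan gene Dag1, at -0.02, and the common integrin subunit gene Itgb1, at -0.05, named here after their values were seen, also had overlapping groups.

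The basement membrane partners are the nidogens, collagens IV, XV and XVIII, perlecan, agrin and other proteins found in the sheet with laminin. Of 16 listed, 14 were tested, with 0 higher and 0 lower at an adjusted p-value under 0.05 in limma, 0 and 0 in edgeR and 2 higher in DESeq2, against 0.799% of all tested genes. In limma, 3 of the 14 were higher with p under 0.05 before adjustment, against 7.04% of all tested genes. The median log2 fold change was 0.32 with 11 above 0, beside 0.02 and 52.7% above 0 for all tested genes. Col18a1, the collagen XVIII chain from which endostatin is cut, had counts of 891, 2369 and 1700 in Mock and 8184, 5461 and 4053 in knockdown libraries. Nid2, which encodes nidogen-2, had 124, 595 and 193 in Mock and 780.2, 825 and 1042 in knockdown libraries. In both genes the knockdown libraries lay above all Mock libraries, with log2 differences of 1.89 (SE 0.36, limma adjusted p = 0.109) for Col18a1 and 1.85 (SE 0.49, limma adjusted p = 0.238) for Nid2. These were the 2 partners that DESeq2 called, with adjusted p of 8.316e-06 and 0.0257, and edgeR gave 0.112 and 0.297. In limma, Col18a1 also passed with the GC correction (adjusted p = 0.0296), and Nid2 passed without Mock replicate 2 (log2 difference 2.49, adjusted p = 0.0434). For Col4a6, a collagen IV chain, the groups overlapped and the log2 difference was 0.63 (SE 0.27, limma adjusted p = 0.388).

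Dystroglycan holds laminin through a sugar chain that several enzymes build. Of 12 genes listed for this group, 11 were tested, and Gyltl1b, with at most 11 reads in a library, was not. None was called at an adjusted p-value under 0.05 in limma, edgeR or DESeq2, and 1 was higher with p under 0.05 before adjustment in each of the 3 tests, against 7.04% of all tested genes in limma, 6.09% in edgeR and 6.78% in DESeq2. A single gene of 11 is near these shares. The median log2 fold change was 0.20, with 9 of the 11 above 0, where 52.7% of all tested genes were. Pomgnt1, an enzyme that extends O-mannose, was the higher gene in limma, with counts of 1427, 1688 and 1911 in Mock and 2421, 2514 and 2599 in knockdown libraries (log2 difference 0.59, SE 0.15, limma adjusted p = 0.219). Pomt2, a subunit of the enzyme that starts the chain, was at 0.34 (SE 0.16, limma adjusted p = 0.406). Pomgnt2, a different enzyme that extends O-mannose, was at 0.38 (SE 0.26, limma adjusted p = 0.582). The groups of Pomgnt1 and Pomt2 did not overlap in the higher direction, beside 10.4% of all tested genes, and those of Pomgnt2 overlapped. B3galnt2, an enzyme of this list named here after its values were seen, was without overlap in the lower direction by a narrow margin, beside 8.75% of all tested genes (log2 difference -0.17, limma adjusted p = 0.645).

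Among proteases that cut laminin, 7 of 11 listed were tested and 0 were called at an adjusted p-value under 0.05 in limma, edgeR or DESeq2, with 0 at a limma p under 0.05 before adjustment. Their median log2 fold change was 0.18. The members with the smallest p-values were Mmp14, a membrane-bound metalloproteinase, at 0.43, Htra1, a serine protease, at -0.27, and Ctsb, which encodes cathepsin B, at 0.20 (limma adjusted p = 0.488, 0.581 and 0.615).

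**Figure D4:**
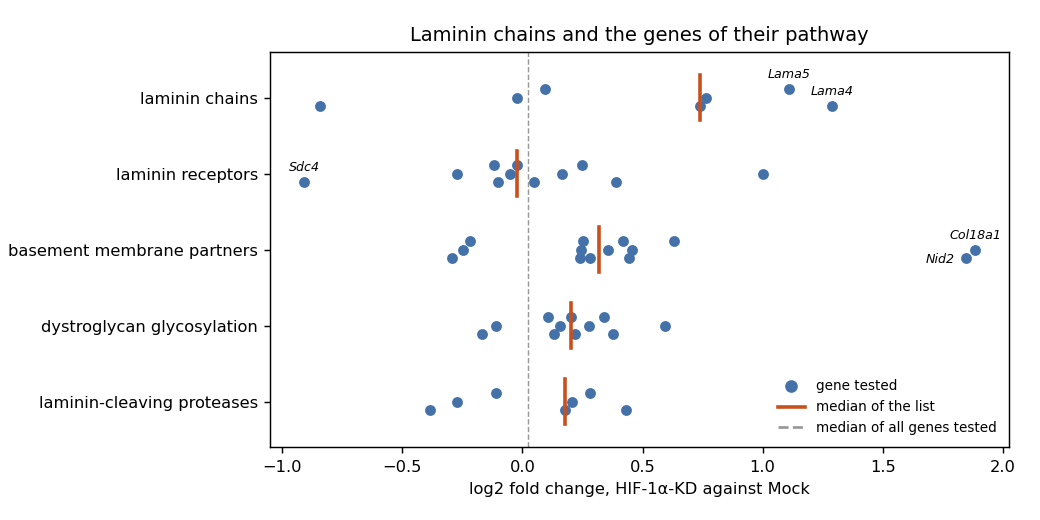
Log2 fold change of HIF-1α-KD against Mock cells for the laminin chains and 4 lists of genes that act with them. Points are genes tested, short orange lines are list medians and the dashed line is the median of all genes tested, 0.02. The medians are 0.74 for the chains, -0.02 for the receptors, 0.32 for the partners, 0.20 for glycosylation and 0.18 for the proteases.

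Markers of other cells were also compared between the groups. Their counts at a limma p under 0.05 before adjustment stand beside 7.04% higher and 5.69% lower over all tested genes, of which 52.7% were above 0, so a single marker of a list of 5 to 8 is little more than that background. Pericyte and smooth muscle markers summed to 24.0 to 51.1 FPKM in Mock and 56.3 to 64.0 FPKM in knockdown libraries, and 3 of the 7 tested of 11 listed were higher with a limma p under 0.05 before adjustment, with 6 of the 7 above 0 and a median log2 fold change of 0.39. Endothelial markers summed to 14.5 to 26.6 FPKM in Mock and 24.2 to 33.9 FPKM in knockdown libraries, led by Flt1 and Egfl7, and 1 of 6 tested of 12 listed was higher (Flt1, log2 difference 1.16) and 1 lower (Cdh5, -0.84), with a median of 0.47. Fibroblast markers summed to 2144 to 5101 and 6713 to 9396 FPKM, with 2 of 8 tested of 10 listed higher, Col3a1 and Col1a1, the 2 most abundant. The median log2 fold change of the 8 was 0.05 with 3 below 0, at -0.38 for Dcn, -0.16 for Lum and -0.83 for Dpt, and Pdgfra was at 0.03, so the sum does not stand for the list. The pericyte list was led by Pdgfrb and Cspg4. Leukocyte markers summed to 104 to 155 FPKM in Mock and 89.1 to 457.5 FPKM in knockdown libraries, led by Lyz2 and Cd74 and highest in HIF-1α-KD replicate 3, with 1 of 8 tested of 11 listed higher, Cd74. The median log2 fold change of the 8 was -0.13 with 5 below 0, among them Ptprc at -0.38, Cd68 at -0.50 and Adgre1 at -0.25. Mock replicate 1 was lowest for the endothelial, pericyte, fibroblast and leukocyte sums within Mock. None of the markers was at 0 in all 6 libraries, and the part of such cells in the laminin values was not tested. In sorted bulk RNA, more cells of a type and more RNA per cell cannot be told apart.

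The label of a colon carcinoma was checked against 11 colon epithelial markers, led by Lgals4 and Krt19. They summed to 2.81 to 20.8 FPKM in Mock and 2.68 to 4.56 FPKM in knockdown libraries, and 1 of 5 tested was lower with a limma p under 0.05 before adjustment, beside 5.69% of all tested genes. This was Cdh17, an intestinal cadherin, at 1.08, 0.556 and 1.64 FPKM in Mock and 0.0385, 0.374 and 0.318 FPKM in knockdown libraries, without overlap (log2 difference -2.50, limma adjusted p = 0.287). The median log2 fold change of the 5 was -0.74, with 4 below 0. Thus the epithelial markers were low in all libraries, highest in sum in Mock replicate 3, while Col3a1 alone had an FPKM of 1400 to 4603. The knockdown was visible in Hif1a, at 6914, 5424 and 4945 in Mock and 697, 3142 and 1928 in knockdown libraries (log2 difference -1.82, limma adjusted p = 0.219), and in its target Car9 (log2 difference -2.93, limma adjusted p = 0.0553), both without overlap of the groups. Car9 passed the threshold with DESeq2 (adjusted p = 0.00207), without the filter (0.0425), with a pseudocount of 10 (0.0486), with the GC correction (0.0497) and without HIF-1α-KD replicate 1 (0.00934) or 3 (0.0470), and its adjusted p was as high as 0.267 without Mock replicate 1. Reads on genes were between 19845852 and 30809140 for the 6 libraries.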

How the data were processed

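RNA of sorted MC-38GFP cells was measured in 3 Mock and 3 HIF-1α-KD libraries, grouped by their labels. The study's methods name STAR for alignment, featureCounts for counting and DESeq2 for testing, all run by the authors. The submitters' processing notes also name edgeR and the assembly GRCm38, whereas the methods name a human assembly, although the gene identifiers are those of mouse. The authors deposited normalized counts, a signal in which each count is divided by a factor per library, and FPKM values, per kilobase of an average transcript width. GC content was deposited as a fraction. The deposited log2 ratios, p-values and false discovery rates of the authors' comparison were not used.

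Multiplying by the factor of each library recovered its reads, and 100% of values up to 300 reads were whole within 0.1. Genes were filtered with filterByExpr of edgeR 4.0.16 (minimum count of 10), which left 12014. Log2 of the normalized count plus 1 was tested with limma 3.58.1 with a mean-variance trend, two-sided, with Benjamini-Hochberg adjustment over all genes tested. A fold change is on that scale, which understates changes of low genes. Alternatives were the quasi-likelihood test of edgeR and DESeq2 1.42.0 on recovered reads, other scalings, filters and pseudocounts (0.1 and 10), loess corrections (span of 0.5) for length and for GC content, a block for replicate number and leaving out each library. The tests were tested on simulated data. Totals of between 19845852 and 30809140 reads per library set the precision, and intervals over libraries include more than counting error.

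The members and gene lists were chosen with earlier results of these data known. Named outside the family were the 3 tested genes of smallest p-value in each of 4 lists, Lamc3, Hif1a and Car9, the 2 highest genes of each marker list and the 5 genes nearest to Lamc1. Dag1, Itgb1, Agrn, B3galnt2, Gyltl1b, Cdh5, Cdh17, Dcn, Lum, Dpt, Pdgfra, Ptprc, Cd68 and Adgre1 were named outside this rule, after their values were seen. Genes are spelled as in the deposited table. Positions are those of GENCODE, and promoter sequences are those of RefSeq. Other software was matplotlib 3.10.9, numpy 2.4.6, pandas 2.3.3, scipy 1.17.1, Python 3.11.15 and R 4.3.3. Some genes are not reported here.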

Additional observations from a re-analysis of the deposited data

How the results depend on the processing

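Each value that answers a comparison was set beside its value at other settings. Of these pairs, 186 kept the direction and the side of the threshold, or stayed within 1.5 times for a count. Another 7 turned direction, 20 moved and 1 passed the threshold. Lama3, near 0, turned to 0.032 (log2) with scaling by library size. Leaving out single libraries gave log2 differences between -0.27 and 0.18 for Lama3, -0.18 and 0.25 for Lamb2, -1.59 and 0.19 for Lamb3, 0.68 and 1.74 for Lama4, 0.87 and 1.31 for Lama5, 0.43 and 1.11 for Lamb1 and 0.48 and 0.93 for Lamc1, and the number of chains higher by 1.5-fold with p under 0.05 before adjustment was between 1 and 4. With DESeq2, Lama5 passed the threshold at 1.10 (adjusted p = 0.00829), so that 1 chain was called higher, and 2 pathway genes were called higher where limma called 0. The pathway genes called higher numbered 1 with the GC correction and 0 to 1 with a library left out. The pathway genes called lower were 1 in limma, Sdc4, and 0 with edgeR, with scaling by library size, with the length correction, with the length correction and replicate block, and with any library left out. The number of trimers allowed in all libraries was 4, and 2 with an FPKM of at least 2, 6 with at least 10 reads, and 0 with the longest coding transcript, an alternative chosen after seeing the data, as were those for pathway genes. It was 4 with any library left out at the FPKM of at least 1. The cause of the differences between tests was not tested.

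The replicate numbers did not pair the samples: deviations of same-numbered libraries correlated at -0.14, -0.12 and 0.02, and not every library correlated best with its own number. With the replicate block, 0 chains were called higher, 0 lower and 0 pathway genes lower, and Lama4 had an adjusted p of 0.139. Depth limits Lama1, Lama2 and Lamc3, with at most 24 reads in a library.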
